A study of Homo sapiens with 8 samples.

Results

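The promoters described here belong to genes of 2 families of ubiquitin ligases, RNF (ring finger) and TRIM (tripartite motif). They come from a Cut&Run peak list of induced U937-PR9 cells, made with an anti-PML::RARA antibody. In Cut&Run a nuclease tethered to the antibody releases the DNA near the bound protein, which is then sequenced. A peak was included if the symbol given to it by the authors was RNF or TRIM followed by digits and at most 1 letter. This rule found 64 peaks, 37 with an RNF symbol (33 genes) and 27 with a TRIM symbol (26 genes), among 7169 peaks with a gene symbol and 15412 peaks in all. RNF216P1, a pseudogene, and RNFT1 also carry a similar symbol but fall outside the rule.

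U937-PR9 cells are monocytic and carry a PML::RARA transgene that is switched on by zinc, so that the fusion comes from an inducible promoter and not from a rearranged chromosome. The study treated these cells with 100 µM ZnSO4 (induced) or with water (uninduced) for 5 h and applied an anti-PML::RARA and an anti-RARA antibody to 2 replicates of each condition, 8 libraries in all. All groups carry the transgene. The list used here joins the 2 induced anti-PML::RARA replicates, and the peaks of uninduced cells and of the anti-RARA antibody were not analysed here, so the values describe induced cells and compare peaks within 1 list. Over the whole genome, the paper reported that this antibody gave far fewer and weaker peaks without zinc than with it. Whether the individual peaks at these promoters depend on zinc or on the fusion was not tested here.

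Ubiquitin ligases choose the protein that receives ubiquitin, and most RNF and TRIM proteins bind the ubiquitin-conjugating enzyme through a RING finger, a fold that holds zinc ions. In TRIM proteins the RING is followed by B-box and coiled-coil domains, and several members are induced by interferon and restrict viruses. PML, which supplies the first part of the fusion, is itself TRIM19, and RNF4 is a ligase that ubiquitylates PML after arsenic treatment has led to its modification by SUMO.

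Each peak has a value read here as its total signal, summed over its bases, and another read as its largest signal, called peak height here. The position of the largest signal is the apex. Replicates have no separate values in the list, so that no spread between them can be given, and the depth of the libraries is unknown. Peaks are not replicates, so that families are described below by counts, medians and quartiles, with no test. Intervals of medians are 95% order-statistic intervals and intervals of shares are exact (Clopper-Pearson) 95% intervals. They cover the sampling of peaks or genes only.

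The sequences under the apexes of high promoter peaks are shown first, since the later accounts of motifs refer to them. They are 101 bases long, centred on the apex, read 5′ to 3′ on the strand of the gene from GRCh37 (hg19, the build of the list), and were printed only where no annotated exon of any gene overlaps. Capitals mark matches to the motifs described at the end. The set holds the highest peak of each family (RNF149 and TRIM69), the peaks of RNF168 and TRIM24, 2 chromatin-associated ligases, and 1 of the RNF220 peaks, which lies far from the gene's start sites.
RNF149, chr2:101925329-101925429, minus strand: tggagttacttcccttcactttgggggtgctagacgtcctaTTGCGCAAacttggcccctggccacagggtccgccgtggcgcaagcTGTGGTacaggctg
RNF168, chr3:196230664-196230764, minus strand: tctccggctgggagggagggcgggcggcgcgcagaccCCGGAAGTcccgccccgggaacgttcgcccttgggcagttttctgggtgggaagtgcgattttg
TRIM69, chr15:45021072-45021172, plus strand: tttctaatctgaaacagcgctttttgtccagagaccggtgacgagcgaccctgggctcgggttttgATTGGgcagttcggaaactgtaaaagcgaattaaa
TRIM24, chr7:138144717-138144817, plus strand: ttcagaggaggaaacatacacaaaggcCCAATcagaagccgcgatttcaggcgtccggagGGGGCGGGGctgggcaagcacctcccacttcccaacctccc
RNF220, chr1:44888018-44888118, plus strand: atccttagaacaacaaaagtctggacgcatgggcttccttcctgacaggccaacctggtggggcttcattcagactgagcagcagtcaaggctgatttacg
Around the apex of RNF149 these letters held a C/EBP and a RUNX motif, and around that of RNF168 an ETS motif. TRIM69 held an NF-Y motif, and TRIM24 an SP/KLF and an NF-Y motif. The RNF220 stretch held none of the 14 motifs searched. The 101 bases around the apex of TRIM8 (height 47) met the same rule but are not printed. They also held none.

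Peak heights of the families lay in the same range as each other and as those of the other 7105 labelled peaks. RNF promoter peaks had a median height of 27 (interval 23 to 31, quartiles 21 and 32, n = 37) and TRIM promoter peaks a median of 28 (interval 23 to 33, quartiles 23 and 33.5, n = 27). The other labelled peaks had a median of 26 (quartiles 20 and 35). On the log2 scale the mean height of TRIM peaks was 0.04 above that of RNF peaks, with SDs over peaks of 0.45 and 0.47. RNF peaks were 0.01 and TRIM peaks 0.05 above the other labelled peaks, whose SD was 0.50. All 3 differences were small beside these SDs. No member peak reached the maximum of the labelled peaks, 86.

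**Figure D1:**
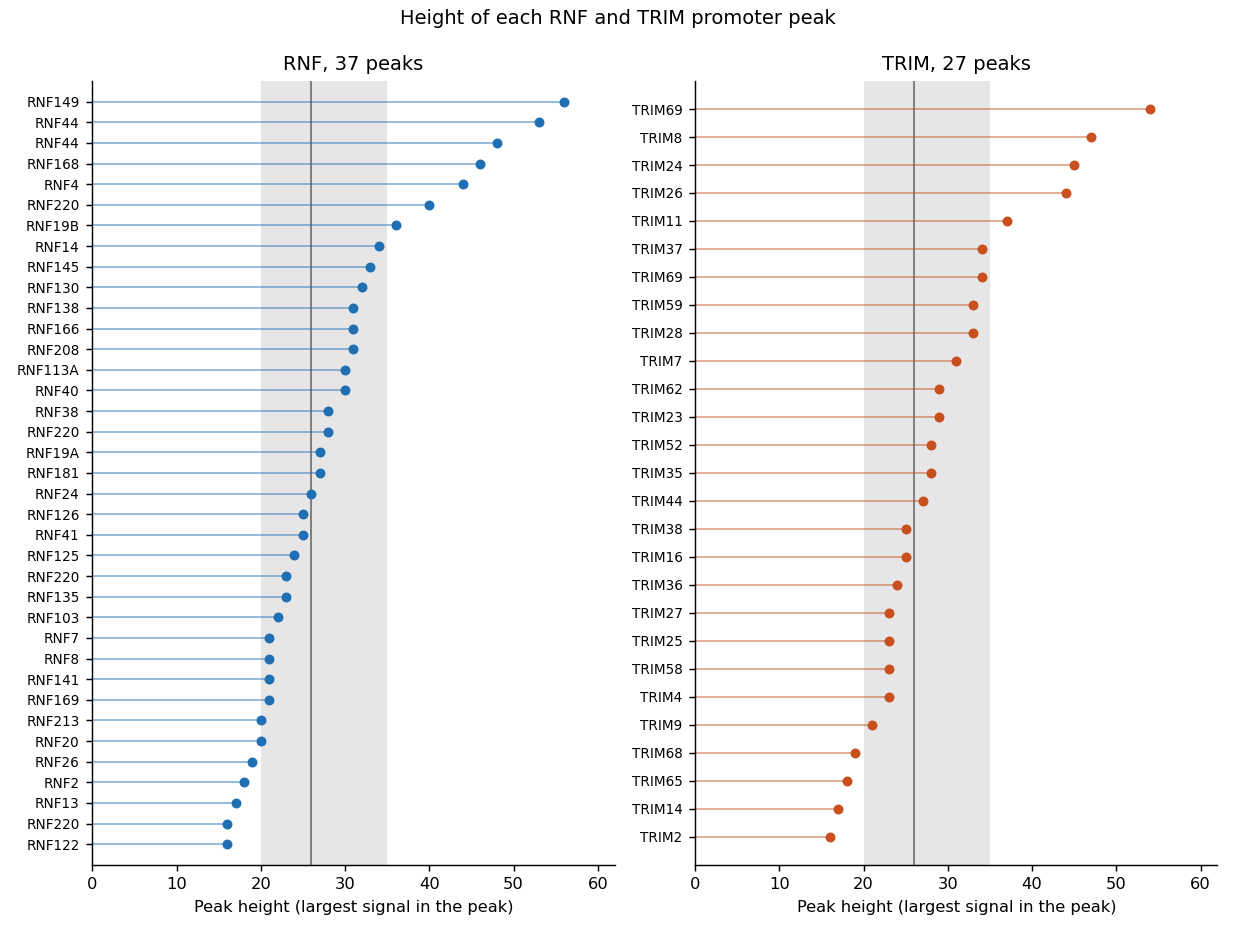
Height of each of the 37 RNF and 27 TRIM promoter peaks, 1 point per peak, ordered by height. The horizontal axis is the largest signal in the peak, the grey band is the quartile range of the other labelled peaks (20 to 35) and the line their median (26). Both families run from 16 to above 50, with most points inside the band.

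The 5 highest RNF promoter peaks belonged to RNF149, RNF44, RNF168 and RNF4. RNF149, a ligase anchored in membranes (ENSG00000163162, minus strand of chromosome 2, 101887681 to 101925163), had the highest at 56, above 97.5% of the other labelled peaks. Its apex lay 216 bp upstream of the start site. RNF44 had 2 peaks of height 53 and 48. RNF168, which ubiquitylates histone H2A at DNA double-strand breaks, had a peak of height 46 and an apex 75 bp before its start (ENSG00000163961, minus strand of chromosome 3, 196195654 to 196230639). RNF4 (ENSG00000063978, plus strand of chromosome 4, 2463947 to 2517584) had a peak of height 44 and width 1971 bp, whose apex lay 1 bp upstream of an annotated start.

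The highest TRIM promoter peak was that of TRIM69, at 54, above 96.7% of the other labelled peaks. TRIM8, a regulator of cytokine and NF-κB signalling, followed at 47. TRIM24, a PHD- and bromodomain-containing cofactor of nuclear receptors that include RARA (ENSG00000122779, plus strand of chromosome 7, 138145004 to 138274741), had a peak of height 45, the apex of which lay 237 bp before the gene. The peak of TRIM26, which lies in the major histocompatibility complex, had a height of 44, and that of TRIM11 a height of 37. At or above the 90th percentile of height in labelled peaks (44) there were 5 of 37 RNF peaks (13.5%, interval 4.54 to 28.8%) and 4 of 27 TRIM peaks (14.8%, interval 4.19 to 33.7%), against 10.4% of all labelled peaks. Both shares lay near that background.

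At the low end, RNF122 and 1 peak of RNF220 had a height of 16 and RNF13, a membrane-anchored ligase of endosomes and lysosomes, a height of 17. Among TRIM genes TRIM2 had 16, TRIM14 had 17 and TRIM65 had 18. A height of 16 or below was found in 2 of 37 RNF peaks and 1 of 27 TRIM peaks, against 6.05% of all labelled peaks. These peaks stood at the lower edge of the list, since 0.197% of the other labelled peaks were below 16.

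Widths were also similar. The median was 1259 bp in RNF peaks (interval 994 to 1411), 1126 bp in TRIM peaks (interval 1006 to 1416) and 1107 bp in the other labelled peaks (quartiles 768 and 1540). The median total signal was 12287, 10279 and 10075 in the same order. RNF44 and TRIM8 stood apart in width from the rest of their families. The peak over the start of RNF44 was 5154 bp wide, with a total signal of 82549, and that of TRIM8 was 4941 bp wide, with a total signal of 57154. The next widest were TRIM26 with 2158 bp and RNF4 with 1971 bp, followed by TRIM62 with 1916 bp and RNF130 with 1850 bp. The 90th percentile of width in labelled peaks was 2067 bp, which 1 of 37 RNF peaks and 2 of 27 TRIM peaks reached. Heights were also ranked among other labelled peaks of like width (10 classes). The median percentile was then 46.8 for RNF and 48.6 for TRIM, against 48.6 for the other labelled peaks themselves. Ranked among the other labelled peaks of any width, the medians were 51.5 and 55.1, against 47.7 for the others. Within classes of width narrow peaks moved up: that of TRIM28, 648 bp wide and 33 high, went from percentile 69.7 to percentile 91.2.

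**Figure D2:**
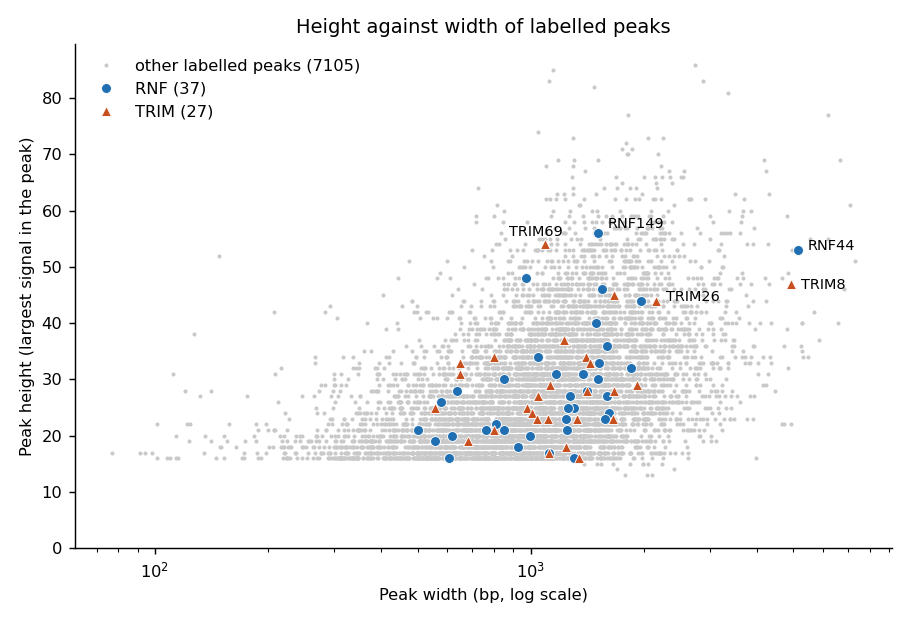
Height (largest signal) against width (bp, log scale) of labelled peaks, with RNF peaks as blue circles, TRIM peaks as orange triangles and the other 7105 labelled peaks in grey. Members lie within the grey cloud, and RNF44 (5154 bp) and TRIM8 (4941 bp) lie at its right edge.

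A symbol of the family was attached to 33 of 84 protein-coding RNF genes of GENCODE (39.3%, interval 28.8 to 50.5%) and 26 of 73 TRIM genes (35.6%, interval 24.7 to 47.7%). Of all 20090 protein-coding genes, 30.0% had their symbol on a peak, a value inside both intervals. When any peak with its apex within 1 kb of an annotated start of the gene was counted, whatever its symbol, the counts were 45 of 84 RNF genes (53.6%, interval 42.4 to 64.5%) and 28 of 73 TRIM genes (38.4%, interval 27.2 to 50.5%). The share over all protein-coding genes was 39.3% by this rule, below the RNF interval and inside the TRIM interval. With the start of the canonical transcript alone, a rule chosen after seeing the data, the shares were 48.8% (interval 37.7 to 60.0%), 34.2% (interval 23.5 to 46.3%) and 35.1%. Of the 58 other RING ligase genes on a list of well-studied ligases, 36 had their symbol on a peak (62.1%, interval 48.4 to 74.5%). Any apex within 1 kb of a start was found for 39 of the 58 (67.2%, interval 53.7 to 79.0%), so that an interval above 39.3% was not particular to RNF genes. That list was drawn up by hand and does not stand for all such genes. The 39 peaks with a symbol from that list had a median height of 27 and a median width of 1146 bp.

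**Figure D3:**
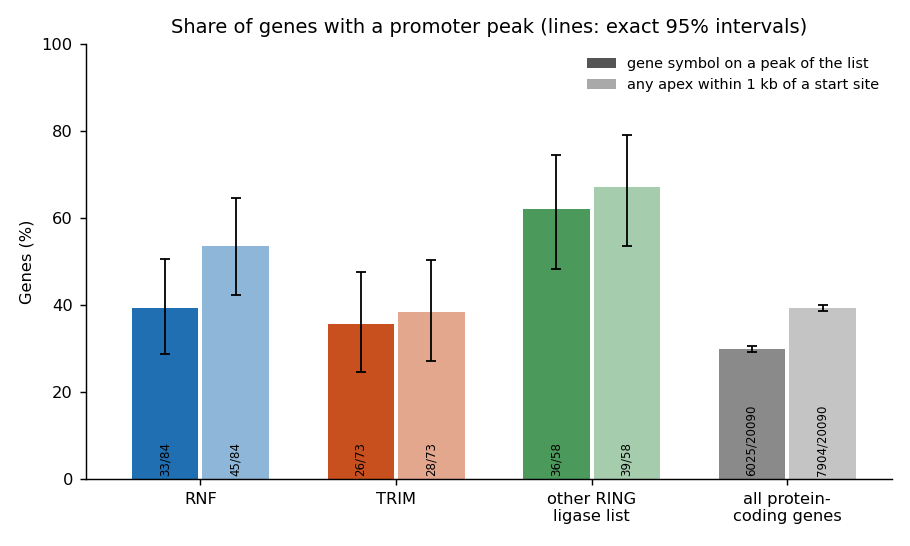
Percentage of genes with a promoter peak in the RNF family, the TRIM family, the list of other RING ligases and all protein-coding genes. Dark bars count genes whose symbol is on a peak and light bars genes with any apex within 1 kb of a start site. Lines are exact 95% intervals. The light bars of RNF (53.6%) and of the other RING ligases (67.2%) have their intervals above the 39.3% of all protein-coding genes.

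Some TRIM genes are recent duplicates, and reads from near-identical copies cannot be assigned to 1 of them. At 4 of 72 TRIM starts at least 50% of the 50-base words within 1 kb recurred at another gene of the families (TRIM49, TRIM49C, TRIM64 and TRIM64B), and none of these 4 had an apex there. TRIM73 had no annotated canonical start and was left out of this count of words. Without these 5 genes, 28 of 68 TRIM genes had an apex within 1 kb of a start (41.2%). No RNF start was of this kind. The part of sequence identity in the TRIM share was not tested further.

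PML itself had a peak with its symbol, of height 24 and width 545 bp. The apex nearest to a PML start, 18 bp downstream, belonged to a peak of height 39 with the symbol of STOML1, the neighbouring gene. RING1, which like RNF2 belongs to Polycomb complexes, had neither its symbol on a peak nor an apex within 1 kb of a start. Of the list of other RING ligases, ZNRF2 had the highest peak (62) and PELI2, of the Pellino ligases, the lowest (16).

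Of the RNF ligases that act on chromatin and DNA damage, 8 of 9 had their symbol on a peak, and 8 of 9 had an apex within 1 kb of a start, against 30.0% and 39.3% of all protein-coding genes. This list of 9 was drawn up with earlier results of these data known, so the count is a description. The exception was RNF111 (Arkadia), a SUMO-targeted ligase like RNF4, where no apex lay within 1 kb of a start and the peak of height 29 inside the gene had the symbol of SLTM. After RNF168 (46) and RNF4 (44), RNF138, which takes part in DNA end resection, had a peak of 31. RNF40 had a labelled peak of 30, far from its own start, and its partner RNF20, with which it attaches ubiquitin to histone H2B, a peak of 20. RNF8, which acts before RNF168 at DNA breaks, had 21, 6 bp from a start, and RNF169, which binds ubiquitylated H2A, also had 21. RNF2 (RING1B), the catalytic subunit of Polycomb repressive complex 1, had the lowest of the group at 18. The group's median height, 25.5, was close to the 26 of the other labelled peaks.

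Of the 6 RNF ligases of innate immunity and NF-κB signalling 4 were labelled, against 30.0% of all protein-coding genes. RNF166 had 31, RNF125, which marks RIG-I for degradation, 24, RNF135 (Riplet), which activates RIG-I, 23, and RNF213, a very large ligase with ATPase activity, 20. RNF114 had no label and no apex within 1 kb of a start. RNF31 (HOIP), the catalytic subunit of the linear ubiquitin assembly complex, had no label, but a peak of height 50 and width 1872 bp peaked 100 bp before an RNF31 start and carried the symbol of PSME2.

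RING-between-RING ligases form a thioester with ubiquitin before they pass it on. Of 8 such genes 3 were labelled (37.5%, against 30.0% of all protein-coding genes), RNF19B (36), RNF14 (34) and RNF19A (27), and RNF31 and RNF216 had an apex at a start under another symbol or none. RNF144A had no apex at a start, but a peak of height 52 in intron 3, above 96.4% of all peaks of the list. Of 21 membrane-anchored RNF ligases 5 were labelled (23.8%), RNF149 (56), RNF145 (33), RNF130 (32), RNF103 (22) and RNF13 (17), and 10 of 21 had an apex within 1 kb of a start. Over all protein-coding genes these shares were 30.0% and 39.3%. Unlabelled membrane-anchored genes with such an apex included RNF139, a ligase of the endoplasmic reticulum, and RNF5, of the same compartment. The RNF139 peak had a height of 59 and no symbol. That of RNF5 had a height of 62 and carried the symbol of AGPAT1.

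Of 4 TRIM genes whose proteins have a PHD finger and a bromodomain, TRIM24 (45) and TRIM28 (33) were labelled. This was 50%, against 30.0% of all protein-coding genes. TRIM28 (KAP1) is the corepressor of KRAB zinc-finger proteins. TRIM66 had an apex 50 bp before a start, in a peak of height 18 labelled SNORA3A, and TRIM33 had neither a label nor an apex at a start.

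Of 10 antiviral and interferon-linked TRIM genes 4 were labelled, TRIM26 (44), TRIM38 (25), TRIM25 (23), which activates RIG-I, and TRIM14 (17). TRIM5, TRIM6, TRIM21, TRIM22, TRIM34 and TRIM56 had no label and no apex within 1 kb of a start. TRIM5 and TRIM22 restrict retroviruses, and TRIM21 is the intracellular antibody receptor. The count of 4 of 10 lay near the 30.0% of all protein-coding genes.

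Further TRIM groups were small, and their shares stand beside 30.0% of all protein-coding genes labelled. Of 4 TRIM genes with NHL repeats TRIM2 (16) was labelled (25%), and TRIM3, TRIM32 and TRIM71 were not. Of 7 with a COS box, which bind microtubules or act in muscle, TRIM36 (24) and TRIM9 (21) were labelled (28.6%). Of 5 without a RING, TRIM44 (27), TRIM16 (25) and TRIM14 (17) were labelled (60%). Of the transmembrane TRIM genes TRIM59 had a labelled peak of 33, and TRIM13 an apex 38 bp downstream of a start in a peak of height 23 labelled MIR3613. Outside these groups, TRIM37, which ubiquitylates H2A and limits centriole assembly, had a peak of height 34, 6 bp from the start, and TRIM27 had 23.

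The symbol and the nearest own start were compared for every member. The apex lay within 1 kb of an annotated start of the labelled gene in 33 of 37 RNF peaks (89.2%) and 23 of 27 TRIM peaks (85.2%), against 92.4% of the other labelled peaks whose symbol is in GENCODE. With the start of the canonical transcript alone it was 28 of 37 (75.7%), 20 of 27 (74.1%) and 82.8%. The median distance from the nearest own start was 51 bp in RNF, 82 bp in TRIM and 102 bp in the other labelled peaks. The apex lay downstream of this start in 14 of 37 RNF peaks (37.8%, interval 22.5 to 55.2%) and 8 of 27 TRIM peaks (29.6%, interval 13.8 to 50.2%), against 23.6% of the others.

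**Figure D4:**
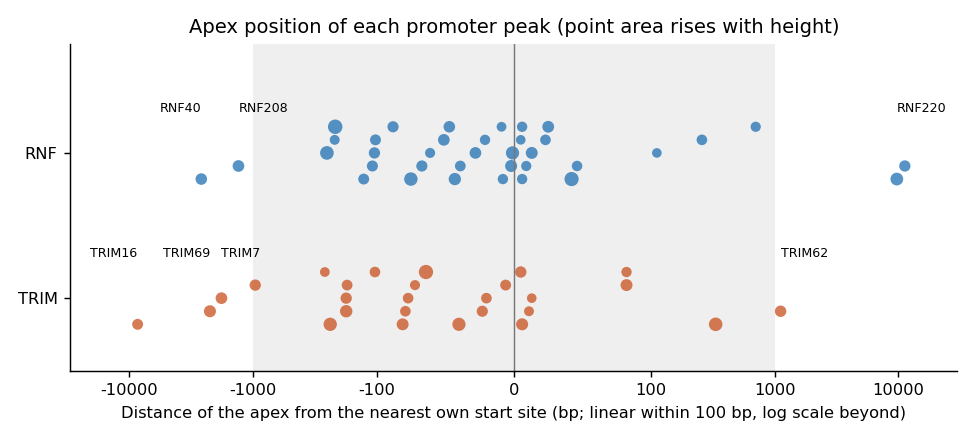
Distance of each apex from the nearest annotated start of the labelled gene, in bp, negative upstream, for RNF (blue) and TRIM (orange) promoter peaks, with larger points for higher peaks. The axis is linear within 100 bp and on a log scale beyond, grey marks 1 kb on either side, and the named genes are those with an apex outside it.

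RNF40 shows how a symbol can miss its start. Its labelled peak (height 30, width 851 bp) had the apex 2616 bp upstream of the nearest RNF40 start and 595 bp downstream of a start of CFAP119. A second peak (height 28, width 1685 bp) peaked 39 bp before an RNF40 start and carried CCDC189, an older symbol of CFAP119. The RNF208 apex lay 1309 bp upstream of its own start, that of TRIM7 1797 bp upstream and that of TRIM62 1113 bp downstream. TRIM16 had its apex 8563 bp from the nearest own start, in an annotated UTR of the canonical transcript. The TRIM2 apex was 13 bp from the start of another transcript, 51352 bp away from that of the canonical one.

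RNF220 had 4 labelled peaks, a number reached or passed by 12 of 6546 labelled genes. RNF220 is ENSG00000187147, on the plus strand of chromosome 1 from 44870866 to 45117395. The peak nearest to its 5′ end had a height of 23, and its highest point lay 23 bp downstream of a start. The highest, at 40, lay 9698 bp downstream of the nearest annotated start in intron 2 and is the one whose sequence is shown above. The third, at 28, lay 11261 bp downstream in the same intron, with a gap of 690 bp between these peaks. The fourth, at 16, was in intron 5, 5 bp downstream of an alternative start. There were 3 further peaks without a symbol in intron 2, with heights of 33, 19 and 18.

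RNF44 and TRIM69 each had 2 labelled peaks. The apex of the wide RNF44 peak lay 42 bp downstream of a start, and the narrower one, of 971 bp, lay 252 bp upstream of an alternative start, in intron 7 of the canonical transcript. The TRIM69 peak of height 54 lay 64 bp upstream of a start and the other, of height 34, 2227 bp upstream. The canonical TRIM69 transcript starts further downstream, so that the apexes lay -7604 and -9767 bp from it. More than 1 labelled peak was found in 2 of 33 RNF genes and 1 of 26 TRIM genes, against 8.45% of the other labelled genes.

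Shared promoters were counted next. Another named protein-coding gene had a start within 1 kb of the apex in 5 of 37 RNF peaks (13.5%, interval 4.54 to 28.8%) and 2 of 27 TRIM peaks (7.41%, interval 0.910 to 24.3%), against 20.1% of the other labelled peaks. These were RNF14 with PCDH12, RNF113A with NDUFA1, RNF40 with CFAP119, RNF41 with NABP2, RNF20 with PGAP4, TRIM23 with TRAPPC13 and SHLD3, and TRIM35 with PTK2B. RNF113A is a splicing factor and RNF41 (Nrdp1) a ligase for receptors of the EGF family. At such promoters the signal cannot be assigned to 1 of the genes. All 7 apexes except that of RNF40 lay within 1 kb of a start of the labelled gene.

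There were 18 genes of the families without their symbol that had an apex within 1 kb of a start, 13 RNF (15.5%) and 5 TRIM genes (6.85%), against 10.2% of all protein-coding genes. In RNF genes the peak had no symbol in 7 and another symbol in 6, and its median height was 26 (range 21 to 62). The highest were RNF5 (62), RNF139 (59), RNF31 (50) and RNF34 (44). RNF167 (33, labelled SLC25A11), RNF227 (27), RNF121 (26, labelled LOC100133315), RNF212 (26), RNF115 (25, labelled POLR3C), RNF216 (24), RNF165 (23), RNF170 (22, labelled MIR4469) and RNF187 (21) followed. In TRIM genes all 5 peaks had another symbol: TRIM41 (56, labelled MIR4638), TRIM13 (23), TRIM46 (20, labelled KRTCAP2), TRIM66 (18) and TRIM39 (15, labelled HCG18). The TRIM41 peak was 3329 bp wide and higher than every labelled TRIM peak.

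Inside the bodies of labelled family genes, 15 of 59 genes (25.4%) had a further peak without their symbol, 22 peaks in all, against 22.5% of all labelled protein-coding genes. In 5 of the 59 (8.47%) such a peak was higher than the labelled ones, against 10.8%. Both shares lay near the background. RNF166 had 45 in intron 2, close to an annotated start, against 31, and RNF130 had 36 in intron 1 against 32. In RNF122 the intron 2 peak was 32 against 16. TRIM14 had 2 intron 2 peaks of 29 and 27 against 17, and TRIM2 an intronic peak of 22 against 16. RNF4 had an intron 1 peak of 41, below its promoter peak of 44.

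Base composition under the apexes was close to that of other labelled peaks. The median GC content within 200 bp of the apex was 65.8% in RNF, 62.6% in TRIM and 64.3% in the other labelled peaks. The ratio of observed to expected CpG had medians of 0.823, 0.750 and 0.808. Chromosomes 1 and 5 held the most member peaks, 9 each, of 753 and 300 labelled peaks. On chromosome 18 the peak nearest to that of RNF125 was the RNF138 peak, with a gap of 71.7 kb.

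Motifs were searched on both strands in the same windows. They were the nuclear receptor half-site AGGTCA or GGGTCA, direct repeats of a looser form of it with 1, 2 or 5 bases between, CCGGAAGT (ETS), GAGGAAGT (PU.1), TGTGGT (RUNX), TGANTCA (AP-1), TTGCNNAA (C/EBP), GGGGCGGGG (SP/KLF), TGACGTCA (CRE), GCGCATGCG (NRF1), AAGATGGCG (YY1), CACGTG (E-box), CCAAT (NF-Y) and GAAANNGAA, the core of the interferon-stimulated response element. Of the 28 shares (14 motifs in 2 families), the exact interval held the share of the other labelled peaks in 28. A match to letters is not a bound site.

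RARA binds DNA as a dimer with RXR on repeats of the half-site. A single half-site was found in 10 of 37 RNF peaks (27.0%, interval 13.8 to 44.1%), 12 of 27 TRIM peaks (44.4%, interval 25.5 to 64.7%) and 33.0% of the other labelled peaks. Within 100 bp of the apex the shares were 8.11%, 22.2% and 19.5%. Direct repeats were found in 0 of 37 RNF and 0 of 27 TRIM peaks, against 0.662% of the others. Intervals for 0 reach 9.49% and 12.8%, so that a share like that of the others was not detectable with these numbers. The half-sites within 30 bp of the apex of a member, with 10 bases on each side and the half-site in capitals (on the strand of the gene, so that it reads TGACCT or TGACCC where it lies on the other strand), are given with their positions in GRCh37. They are shown as the closest matches to an apex in the families, and stood in peaks of height 17 to 37.
TRIM11, height 37, chr1:228594680-228594705, minus strand: tggtgacgccAGGTCAgcaagtgaaa
TRIM62, height 29, chr1:33646544-33646569, minus strand: gcggggggtgGGGTCAgggctggacc
TRIM38, height 25, chr6:25963030-25963055, plus strand: gttaacttccTGACCCaggaagtggc
TRIM65, height 18, chr17:73892975-73893000, minus strand: gaggagaagcTGACCTgcgccatctg
TRIM14, height 17, chr9:100881781-100881806, minus strand: cacccccggaAGGTCAcagccaactt
RNF130, height 32, chr5:179499070-179499095, minus strand: tgtgttccgcTGACCCtcctcggggc
RNF20, height 20, chr9:104296148-104296173, plus strand: tctccgccgcGGGTCAggggtgagag
The half-site lay 19 bp downstream of the apex in TRIM11, 26 bp upstream in TRIM62, 18 bp downstream in TRIM38, 7 bp upstream in TRIM65 and RNF130, 28 bp upstream in TRIM14 and 16 bp downstream in RNF20. TRIM62 had 3 of them within 200 bp of the apex.

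**Figure D5:**
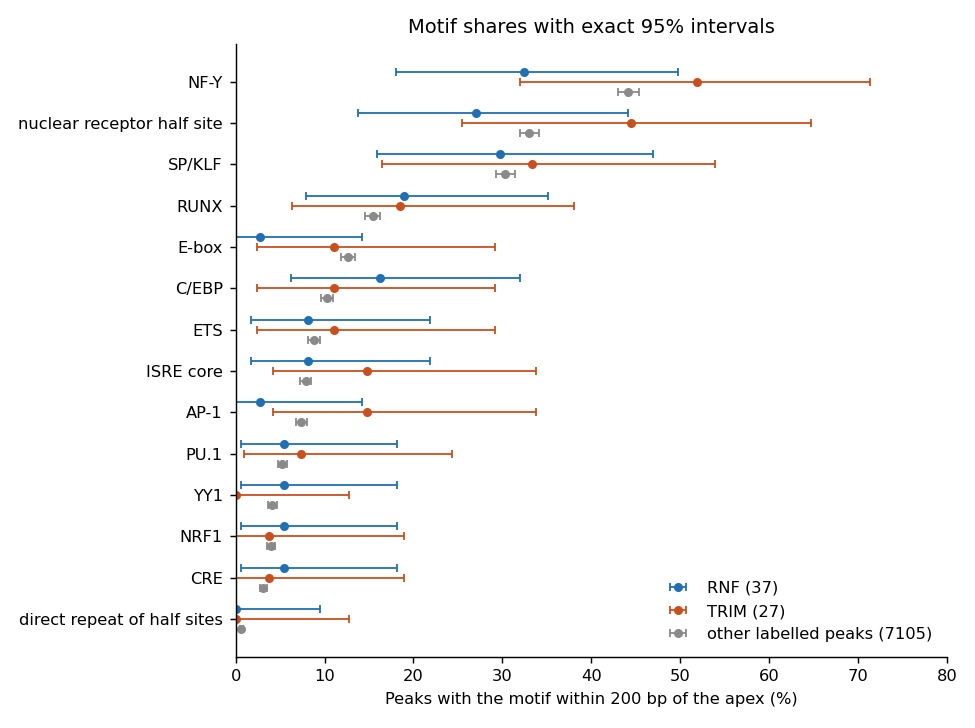
Percentage of peaks with each of 14 motifs within 200 bp of the apex, with exact 95% intervals, in RNF (blue), TRIM (orange) and the other labelled peaks (grey). The grey points lie inside the interval of both families for all 14 motifs.

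The core of the interferon-stimulated response element was found in 3 of 37 RNF peaks (8.11%), 4 of 27 TRIM peaks (14.8%, interval 4.19 to 33.7%) and 7.87% of the other labelled peaks. It is shown for the 4 TRIM genes because TRIM genes are known for their response to interferon, with 10 bases on each side, the core in capitals and the position in GRCh37.
TRIM69, height 54, chr15:45021032-45021060, plus strand: tggctttgaaGAAAGAGAAaccaggacgg
TRIM8, height 47, chr10:104405713-104405741, plus strand: gtggaagacgGAAAAAGAAtcctgtgggt
TRIM26, height 44, chr6:30181352-30181380, minus strand: tgatttcagtTTCCATTTCgctgcccctg
TRIM44, height 27, chr11:35684278-35684306, plus strand: tcctgacgggGAAAGGGAAagtggaaccg
TRIM26 held a second, overlapping core 6 bp further upstream. Of the 4 labelled genes of the antiviral group, TRIM26 alone held the core, and TRIM14, TRIM25 and TRIM38 did not. In the RNF family the core was found at RNF135, RNF145 and the third RNF220 peak. TRIM44 held the most motifs of any member, 6 of 14.

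NF-Y motifs were found in 12 of 37 RNF peaks (32.4%) and 14 of 27 TRIM peaks (51.9%), against 44.2%, and SP/KLF motifs in 11 of 37 (29.7%) and 9 of 27 (33.3%), against 30.3%. ETS motifs were found in 3 peaks of each family, at RNF168, RNF20 and RNF208 and at TRIM35, TRIM44 and the TRIM69 peak of height 34. These were 8.11% of RNF and 11.1% of TRIM peaks, against 8.77% of the others. The motif of PU.1, a myeloid regulator of the ETS family, was counted separately. It was found in 2 of 37 RNF peaks (5.41%) and 2 of 27 TRIM peaks (7.41%), against 5.26% of the others. The peaks were those of RNF220 with heights of 28 and 16, and those of TRIM44 and TRIM52. The C/EBP motif was found in 6 of 37 RNF (16.2%) and 3 of 27 TRIM peaks (11.1%), against 10.2% of the others, and at RNF149 it lay 6 bp upstream of the apex.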

How the data were processed

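Per the study's methods, the authors used Trimmomatic for trimming, Bowtie2 for alignment to hg19, Samtools to take out PCR duplicates and Bedtools to take out reads in blacklisted regions. SEACR called the peaks (norm union), with the matching control as background. The uninduced libraries have Control in their titles, but the methods do not state that they served as this background. Peaks with an IDR below 0.05 across the 2 replicates were kept, and a symbol was given where the apex overlapped a promoter of the UCSC known genes. The authors deposited the signal values of each peak as whole numbers. The column headed SEACR_score was read here as the largest signal (height) and that headed summit as the total signal. This reading rests on the values alone, since the headers do not name these measures. Whether the signal was scaled, or comes from 1 replicate or from pooled reads, is not given in the sources used here.

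Here, start sites, exons and UTRs were taken from GENCODE release 44 mapped to GRCh37, and distances to a gene's own start use any annotated transcript unless the canonical one is named. The members, role lists and motifs were chosen with earlier results of these data known. The genes named were the 5 highest and 3 lowest peaks of each family, the 3 widest, genes with several peaks, distant apexes, unlabelled genes with an apex at a start, the extremes of each role list and well-known members; other genes were named after their values were seen. The alternatives were other symbol, start-site, width, height, merging and motif-window rules. Samples were not compared with each other, and no test was made. The motif search and the intervals of medians were checked on simulated data, the latter on values without ties. The intervals of shares were not checked in this way. Python 3.11.15, pandas 2.3.3, numpy 2.4.6, scipy 1.17.1, pysam 0.24.0 and samtools 1.23.1 were used.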

Additional observations from a re-analysis of the deposited data

How the results depend on the processing

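No paired analysis was possible because both replicates were joined into 1 value per peak, which also prevented leaving out either of them. Of 29 values of medians, percentiles and gene shares under alternative settings, 25 stayed inside the interval of the reported value. The settings reuse mostly the same peaks and genes, so that this count is no independent support. A wider symbol rule left the 27 TRIM peaks unchanged. Median heights ran from 25 to 30 for RNF (reported 27) and from 27 to 28 for TRIM (reported 28) with 1 peak per gene, apexes at own starts only, a wider symbol rule, merged neighbours or wide peaks only. The share of RNF genes with a peak moved from 39.3% to 53.6% with any apex within 1 kb of a start and to 57.1% within 3 kb, and to 23.8% when only peaks at or above the list's median height counted. The TRIM share moved from 35.6% to 21.9% in the last case. The shares over all protein-coding genes were 30.0%, 39.3%, 42.1% and 17.5% under the same 4 rules and moved in the same directions. The canonical start and the removal of TRIM genes with recurring start sequence were added after seeing the data, and the latter gave 26 of 69 labelled (37.7%). Of 56 motif shares under other windows, 9 left the interval of the reported share, among them the half-site within 100 bp of the apex. That window lies inside the reported one, so that a share within it can only fall or stay equal. The half-site share of the other labelled peaks fell too, from 33.0% to 19.5%. Depth is unknown, so that genes without a peak cannot be told from genes with a weak one.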
